A study of Mus musculus with 6 samples.

Results

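The genes described here are the keratins of the basal and spinous layers of mouse epidermis: Krt5, Krt14 and Krt15 of the basal layer, and Krt1, Krt2, Krt10 and Krt77 of the layers above it. The rule takes them by name and uses no measured value, although it was set with earlier results of these data known. A probe belonged to a gene where its gene name or RefSeq accession led to that gene, also through an older symbol. Of the 7 genes, 6 had at least 1 of the 27569 gene names covered by the array, and 5 were bright enough to be tested among 16470 genes. No probe was matched to Krt77, which is not analysed here. The 6 genes were read by 9 probes, of which 6 were tested.

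The samples were 6 cultures of primary keratinocytes from the epidermis of newborn wild-type mice, each measured on its own 1-colour Agilent array. The labels state that hair follicle buds were isolated along with the keratinocytes. All 6 cultures carried the v-ras-Ha oncogene, brought in by a virus at 10 particles per cell, so no culture without the oncogene is part of the comparison. From 5 hours after transduction, 3 cultures received Anakinra at 5 ug/ml, a drug that blocks the interleukin-1 receptor, and 3 received PBS. RNA was prepared 3 days later, and the antagonist was renewed after 2 days. The comparison asks what changes in ras-expressing keratinocytes when the interleukin-1 receptor is blocked.

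Keratins are the intermediate filament proteins of epithelial cells. A filament is built from pairs of a type I and a type II keratin. Basal keratinocytes, the dividing cells on the basement membrane, make Krt5 (type II) with Krt14 (type I). A cell that leaves the basal layer and starts to differentiate switches to Krt1 (type II) with Krt10 (type I), so this pair is the classical mark of the spinous layer. Krt15 is a further type I keratin of basal cells and of the hair follicle bulge. Krt2 and Krt77 are type II keratins of upper layers, and Krt77 is also known from sweat ducts. Calcium drives the switch in culture, and ras-transduced mouse keratinocytes are known to make little Krt1 and Krt10.

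The genes lie in the 2 keratin clusters of the mouse genome, type I on chromosome 11 and type II on chromosome 15. Promoter windows of 250 bases before the annotated start were read from RefSeq for build GRCm38.p6, where 5 of the 7 genes had one. Krt1 and Krt15 had none. Those of Krt10 and Krt5 are shown because Krt10, of the spinous layer, rose in the comparison described next and Krt5, of the basal layer, did not pass its test. Both are on the minus strand, Krt10 at chr11:99389365-99389614 and Krt5 at chr15:101712906-101713155, and are written 5′ to 3′ as transcribed. Capitals mark the letters TATAAA of a TATA box, a CCAAT box, or the letters TTGCNNAA of a C/EBP motif, on either strand. The AP-1 motif TGANTCA, the GC box GGGCGG and the NF-kB motif were searched too, also on both strands.
Krt10: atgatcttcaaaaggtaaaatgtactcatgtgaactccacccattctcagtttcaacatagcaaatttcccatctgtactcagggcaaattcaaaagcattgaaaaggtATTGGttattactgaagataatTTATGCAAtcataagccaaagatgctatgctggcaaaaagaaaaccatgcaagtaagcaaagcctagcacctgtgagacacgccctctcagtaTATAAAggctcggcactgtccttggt
Krt5: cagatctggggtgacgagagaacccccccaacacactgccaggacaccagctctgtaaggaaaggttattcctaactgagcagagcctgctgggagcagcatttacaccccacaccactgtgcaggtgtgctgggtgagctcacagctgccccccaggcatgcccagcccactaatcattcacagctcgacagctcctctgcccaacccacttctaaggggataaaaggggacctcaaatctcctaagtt
The Krt10 window held a TATA box 26 to 21 bases before the start. On the other strand it held a CCAAT box at 141 to 137 and a C/EBP motif at 119 to 112 bases before the start, and the matches did not overlap. None of the 6 motifs was found in the Krt5 window. Only exact letters were counted, so close variants, such as gataaa for TATAAA in the Krt5 window, were not marked in any window. Of the windows not shown, that of Krt2 held a CCAAT box at 159 to 155 bases before the start. The Krt77 window held a C/EBP motif at 129 to 122. The Krt14 window held NF-kB matches on both strands, at 108 to 99 and 107 to 98. It begins downstream of the gene's 5′ end in RefSeq and was therefore not shown. Over 32851 RefSeq promoters of the same length, 12.4% held TATAAA, 33.8% CCAAT and 9.56% TTGCNNAA. For TGANTCA the share was 6.75%, for GGGCGG 32.7% and for the NF-kB motif 45.8%. A match describes letters in this window and no bound factor.

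Krt1 and Krt10 were higher in the cultures given Anakinra, each by about the same amount, while Krt5, Krt14 and Krt15 did not pass the test and Krt2 was too dim to test. Values are log2 of the processed signal relative to the 75th percentile of the same array. A change is Anakinra minus PBS with its standard error (SE), tested with limma and adjusted by the Benjamini-Hochberg method over the whole table, and a gene passed with an adjusted p below 0.05. Of the 5 genes, 2 rose and 0 fell, and limma's unadjusted p was under 0.05 for 3 of them, all higher. Over all 16470 genes, 0.971% passed as higher and 0.801% as lower, and 16.1% (2653 genes) had an unadjusted p under 0.05 in either direction, against which such counts are to be read. The groups did not overlap for Krt1, Krt10 and Krt15, all with the 3 Anakinra cultures above the 3 PBS cultures. That order was seen in 12.5% of all genes tested, and the opposite order in 13.8%. With 3 arrays in each group the precision is limited. Whether the cultures of a group came from separate animals is not stated in the labels, and the spread behind the p-values may therefore be technical. In RNA from whole cultures, more cells that make a keratin and more RNA of it per cell cannot be told apart.

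Signals of different probes are not comparable in height, only each probe across arrays. The arrays themselves differed in the share of probes detected. Probes well above background made up 62.5% to 71.0% of the PBS arrays, 86.5% of Anakinra 2 and 55.6% to 56.1% of the other Anakinra arrays. There were 2 slides, and each had its own scan: slide 1 held PBS 2, PBS 3 and Anakinra 1, and slide 2 held PBS 1, Anakinra 2 and Anakinra 3. All 9 genes of a keratinocyte identity list, which includes Krt5, Krt14 and the basal transcription factor Trp63, were well above background on all arrays.

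**Figure D1:**
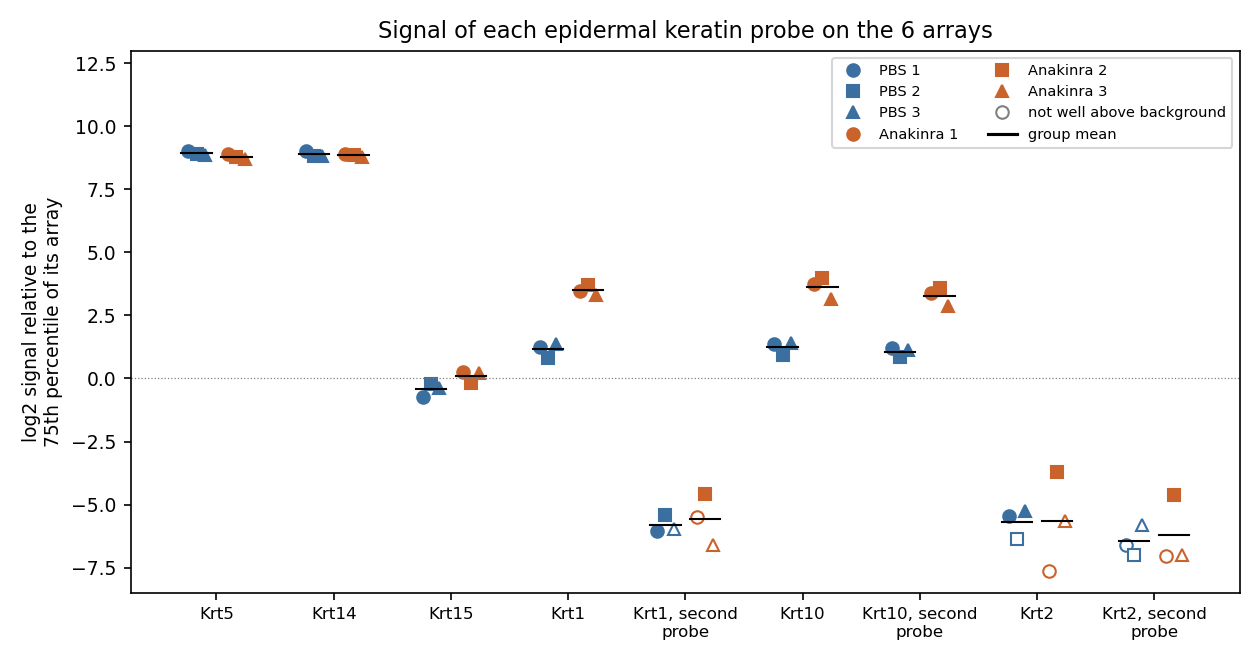
Log2 signal of each of the 9 probes, relative to the 75th percentile of its array (vertical axis), with 1 point per array, blue for PBS and orange for Anakinra, bars for group means and open points where the probe was not well above background. Krt1 and both Krt10 probes sit higher on every Anakinra array than on any PBS array, Krt5 and Krt14 overlap between the groups, and the probes of Krt2 and the second Krt1 probe lie near the bottom.

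Krt1, the type II keratin of the spinous pair, measured 1.27, 0.81 and 1.38 in the 3 PBS cultures and 3.48, 3.71 and 3.31 in the 3 Anakinra cultures. Every Anakinra culture was above every PBS culture by far more than the range within either group. The group means differed by 2.35 ± 0.19 (SE, n = 3 per group), a 5.10-fold rise, with a limma adjusted p of 0.0111. The 95% interval of the change ran from 1.87 to 2.83. In the unscaled processed intensity, Krt1 read 1728 to 2617 in PBS and 10545 to 14277 in Anakinra. The probe lies on the minus strand at chr15:101673710-101673769 of build mm8, the build of the array design, and is annotated to the RefSeq transcript of Krt1.

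Krt10, the type I partner of Krt1, measured 1.38, 0.93 and 1.43 in PBS and 3.75, 4.00 and 3.17 in Anakinra. Again the groups were far apart, with PBS 2 the lowest of the 6 arrays for both partners and Anakinra 2 the highest. The change was 2.40 ± 0.26, a 5.27-fold rise, with a limma adjusted p of 0.0205 and a 95% interval from 1.75 to 3.05. The processed intensity lay between 1880 and 2704 in PBS, and between 9601 and 17392 in Anakinra. This probe lies at chr11:99202770-99202829 (mm8).

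A second Krt10 probe, at chr11:99201715-99202057 (mm8), gave 1.23, 0.84 and 1.12 in PBS and 3.39, 3.60 and 2.88 in Anakinra. It placed the arrays of each group in nearly the order of the first probe, with a 4.68-fold difference. In a fit over 24973 probes, of which 0.609% passed as higher, its limma adjusted p was 0.0222, beside 0.0266 for the first Krt10 probe and 0.0141 for the bright Krt1 probe.

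The second Krt1 probe, at chr15:101676507-101676566 (mm8), was designed on the plus strand, opposite to the first, from a different transcript record. It was well above background on PBS 1, PBS 2 and Anakinra 2 only and was not tested. It read -6.06, -5.43 and -5.95 in PBS and -5.51, -4.60 and -6.62 in Anakinra, so the groups overlapped. As the design gives it, this probe reads the opposite strand, and it does not enter the Krt1 result.

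By size of change, Krt10 had the fourth and Krt1 the fifth largest rise of the 16470 genes tested, and likewise of the 14064 genes above background on all arrays. The median change over all genes tested was 0.01, with the middle 50% of genes between -0.13 and 0.19. Both keratins were therefore far outside the range that held most genes.

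Whether both genes passed depended on the fit. With the slide as a block, a fit in which 0.109% of all genes passed as higher, none of the 5 keratins passed: the change was 2.32 with a limma adjusted p of 0.0595 for Krt1 and 2.39 with 0.0934 for Krt10. Neither passed without the filter on dim probes (limma adjusted p = 0.0561 and 0.0830). Within slide 1 (2 PBS arrays and 1 Anakinra array) Krt1 differed by 2.39 and Krt10 by 2.58, and within slide 2 (1 PBS array and 2 Anakinra arrays) by 2.24 and 2.21. Left-out arrays gave changes from 2.18 to 2.46 for Krt1 and from 2.22 to 2.63 for Krt10. The Krt1 call was lost without PBS 1 (limma adjusted p = 0.0875), without PBS 2 (0.0631) or without Anakinra 1 (0.0575). The Krt10 call was lost without PBS 1 (limma adjusted p = 0.127), PBS 2 (0.152), PBS 3 (0.101) or Anakinra 1 (0.0757). Without Anakinra 2, the array that stands apart, both calls held, with limma adjusted p of 0.0255 for Krt1 and 0.0365 for Krt10.

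**Figure D2:**
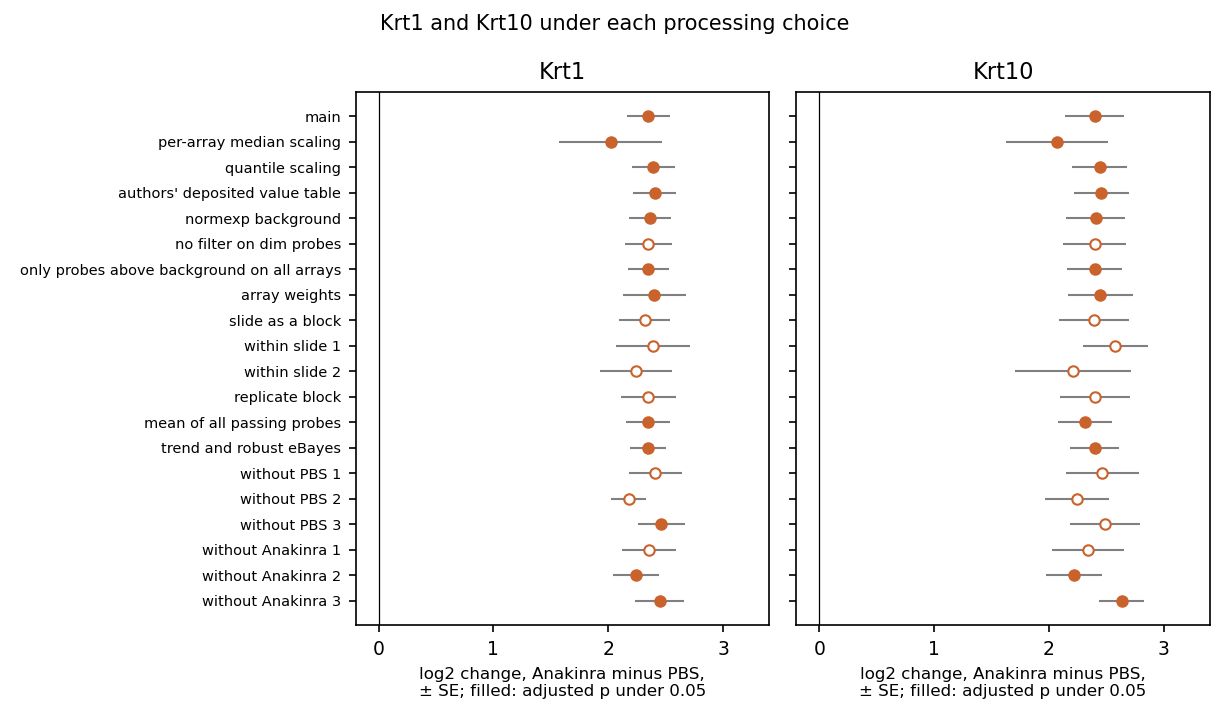
Log2 change (Anakinra minus PBS, horizontal axis) of Krt1 and Krt10 under the processing described and 19 alternatives (rows), with bars for ± SE and filled points where the limma adjusted p was under 0.05. All points lie between 2.02 and 2.63, and open points include the slide block, the within-slide fits and several fits with an array left out.

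Krt5, the type II keratin of basal cells, measured 9.04, 8.92 and 8.88 in PBS and 8.90, 8.78 and 8.72 in Anakinra. The groups overlapped and the whole spread over 6 arrays was small. The change was -0.14 ± 0.08, with a limma adjusted p of 0.465, and its 95% interval ran from -0.35 to 0.06, which does not reach the change seen in Krt1. In the unscaled processed intensity, Krt5 read 453487 to 477107 in PBS and 449565 to 479208 in Anakinra. The probe lies at chr15:101535117-101535176 (mm8).

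Krt14, the type I partner of Krt5, measured 9.03, 8.84 and 8.84 in PBS and 8.92, 8.87 and 8.80 in Anakinra, with overlapping groups. The change was -0.04 ± 0.08, the limma adjusted p was 0.882 and the 95% interval ran from -0.24 to 0.17. Its sign turned under some scalings, for instance to 0.040 with quantile scaling and 0.018 with the authors' deposited values. In the unscaled processed intensity, Krt14 read 449967 to 460051 in PBS and 474708 to 507839 in Anakinra. Before scaling, every Anakinra culture was thus above every PBS culture, so the overlap holds for the scaled values only. The probe is annotated to chr11:100019459-100020064 (mm8).

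Krt5 and Krt14 were read near the upper end of the scanner range. Their mean spot signal was 76.2% to 82.4% (Krt5) and 74.6% to 86.3% (Krt14) of the scanner's saturation value, no spot was marked as saturated, and the signal came from the low-gain scan on all 6 arrays. How much a change would be compressed at such signals was not tested.

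Krt15, a type I keratin of basal and follicle bulge cells, measured -0.72, -0.21 and -0.36 in PBS and 0.26, -0.19 and 0.20 in Anakinra. The groups just failed to overlap, with Anakinra 2 next to PBS 2. The change was 0.52 ± 0.19, with an unadjusted limma p of 0.0360 and a limma adjusted p of 0.270. Its 95% interval ran from 0.049 to 0.997. With the slide as a block the change was 0.64 (limma adjusted p = 0.222), and it was 0.55 within slide 1 and 0.73 within slide 2. The probe lies at chr11:99948116-99948175 (mm8).

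Krt2, a type II keratin of the upper epidermis, was at the edge of detection. Its probe at chr15:101639482-101639541 (mm8) was well above background on PBS 1, PBS 3 and Anakinra 2 only, with values from -6.35 to -5.28 in PBS and of -7.63, -3.72 and -5.64 in Anakinra. The spread among the Anakinra cultures exceeded any difference between the groups. The other probe, at chr15:101638929-101638988 (mm8), was well above background on Anakinra 2 alone. With the filter on dim probes removed, the fit gave 0.03 ± 1.05 for Krt2, with a limma adjusted p of 0.998.

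Within each array, the difference between 2 probes is the same under any scaling that subtracts 1 value per array. With quantile scaling, which does more than that, the 2 changes given next were 2.45 and 2.40. The difference's level has no meaning across probes, but its change between groups does. Taken from the PBS mean, Krt1 minus Krt5 was 0.02, -0.32 and 0.29 in PBS and 2.38, 2.72 and 2.38 in Anakinra. Krt10 minus Krt14 was 0.01, -0.26 and 0.25 in PBS and 2.49, 2.79 and 2.03 in Anakinra. The spinous keratin thus rose against its basal counterpart on every Anakinra array, by 2.49 (SE 0.21), or 5.63-fold, for the type II genes and by 2.44 (SE 0.26), or 5.41-fold, for the type I genes.

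Differences between partners of the same layer changed far less. Krt1 minus Krt10 changed by -0.05 (SE 0.14), with the groups overlapping. Krt5 minus Krt14, taken from the PBS mean, was -0.03, 0.03 and 0.00 in PBS and -0.07, -0.13 and -0.12 in Anakinra. This was a shift of -0.10 (SE 0.03) in which the groups did not overlap, small beside the shift of the spinous pair.

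**Figure D3:**
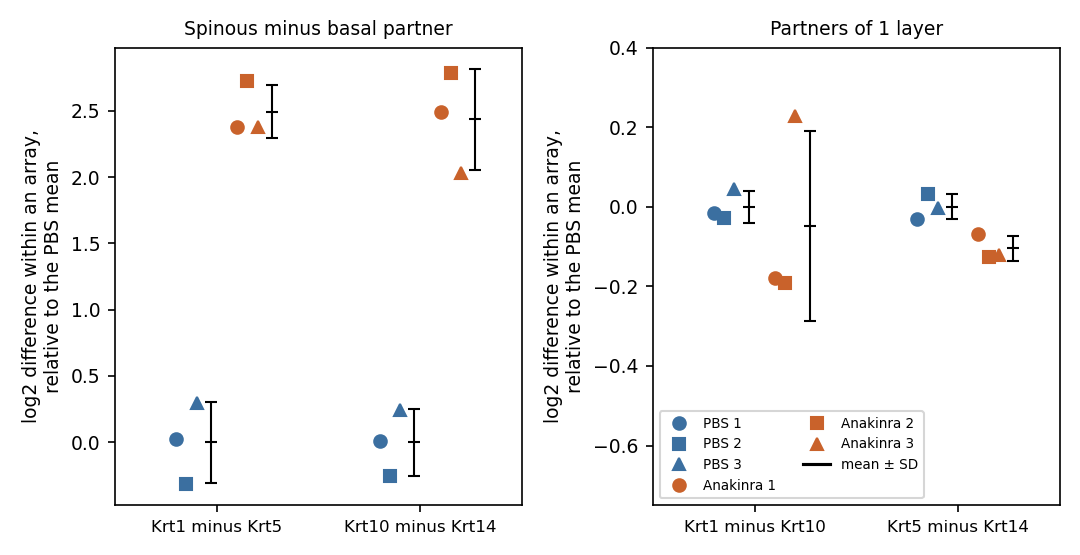
Difference between the log2 signals of 2 keratins on the same array, relative to the mean of the PBS arrays (vertical axis), with 1 point per array and bars for the mean ± SD of each group of 3. In the left panel the Anakinra arrays lie between 2.03 and 2.79 above the PBS mean, and in the right panel, on a narrower axis, all 6 arrays lie between -0.19 and 0.23.

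The genes whose profile over the 6 arrays came closest to each keratin were found by the root mean square difference of log2 values centred per gene, among 12076 genes. For Krt1 the nearest was Krt10, at 0.14, followed by Calm5, a calmodulin family member, at 0.15 and Tdh, a threonine dehydrogenase, at 0.17. For Krt10 the nearest were Tdh at 0.13, Krt1 at 0.14 and Calm5 at 0.20. Calm5 measured -3.13, -3.21 and -2.70 in PBS and -0.46, -0.32 and -0.68 in Anakinra, a rise of 2.53 ± 0.17 (limma adjusted p = 0.00734). Tdh rose by 2.54 ± 0.27 (limma adjusted p = 0.0208).

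The basal pair had other neighbours. For Krt5 they were Rps2, a ribosomal protein gene, at 0.0080, Polr3c, of RNA polymerase III, at 0.016 and Timm10, of mitochondrial import, at 0.020. For Krt14 they were Lrfn4 at 0.018, Desi1 at 0.020 and the ribosomal protein gene Rpl23a at 0.024. These 6 genes, like Krt5 and Krt14, differed little between any arrays, and none passed the test. For Krt15 the nearest were Nipal1 at 0.078, Nlrp2 at 0.097 and the secreted ribonuclease Rnase4 at 0.098, and none of these passed either.

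Of 40 other keratin genes with a probe, 27 were tested. Limma called 1 higher and 0 lower (0.971% and 0.801% of all genes), and 8 had an unadjusted p under 0.05 (16.1% of all genes did). Their median change was 0.21, against 0.01 over all genes tested, and they ranged from -0.47 to 0.97. Of the 27, 20 were well above background on all arrays. Krt26, Krt36, Krt71, Krt76, Krt86, Krt88 and Krt90 entered the test through the PBS cultures only. Krt36 read -2.66 on Anakinra 2 but -5.72 and -4.91 on the other Anakinra arrays. Krt86, Krt87 and Krt20 were likewise highest on Anakinra 2. The gene that rose was Krt79, a keratin of the upper hair follicle, which measured 1.09, 1.17 and 1.11 in PBS and 2.00, 1.95 and 2.02 in Anakinra. That was a change of 0.86 ± 0.06, with a limma adjusted p of 0.00734. Without any single PBS array, with per-array median scaling or without the filter on dim probes, 0 other keratins passed.

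The keratins of stressed and wounded epidermis, Krt6a, Krt6b, Krt16 and Krt17, gave 0 calls in either direction, with a median of 0.22. An unadjusted limma p under 0.05 was found for 2 of them (16.1% of all genes had one). Krt6a, which pairs with Krt16 in activated keratinocytes, differed by 0.26 ± 0.07 (limma adjusted p = 0.177), and Krt16 by 0.21 ± 0.08 (limma adjusted p = 0.290). In both, every Anakinra culture was above every PBS culture, an order seen in 12.5% of all genes.

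The keratins of simple epithelia also gave 0 calls among 6 genes, with 3 unadjusted limma p-values under 0.05 (16.1% of all genes had one). Their median was -0.35, and 5 of the 6 had a negative change. In 3 every Anakinra culture was below every PBS culture, an order seen in 13.8% of all genes. Krt18, the type I simple keratin, measured 4.78, 5.02 and 4.67 in PBS and 4.48, 4.16 and 4.42 in Anakinra, a difference of -0.47 ± 0.13 (limma adjusted p = 0.184). Krt7 differed by -0.32 ± 0.06 (limma adjusted p = 0.0805). Of the 17 remaining keratins, 1 (Krt79) was called higher (0.971% of all genes were), and their median was 0.29. Only 10 of the 17 were well above background on all arrays.

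**Figure D4:**
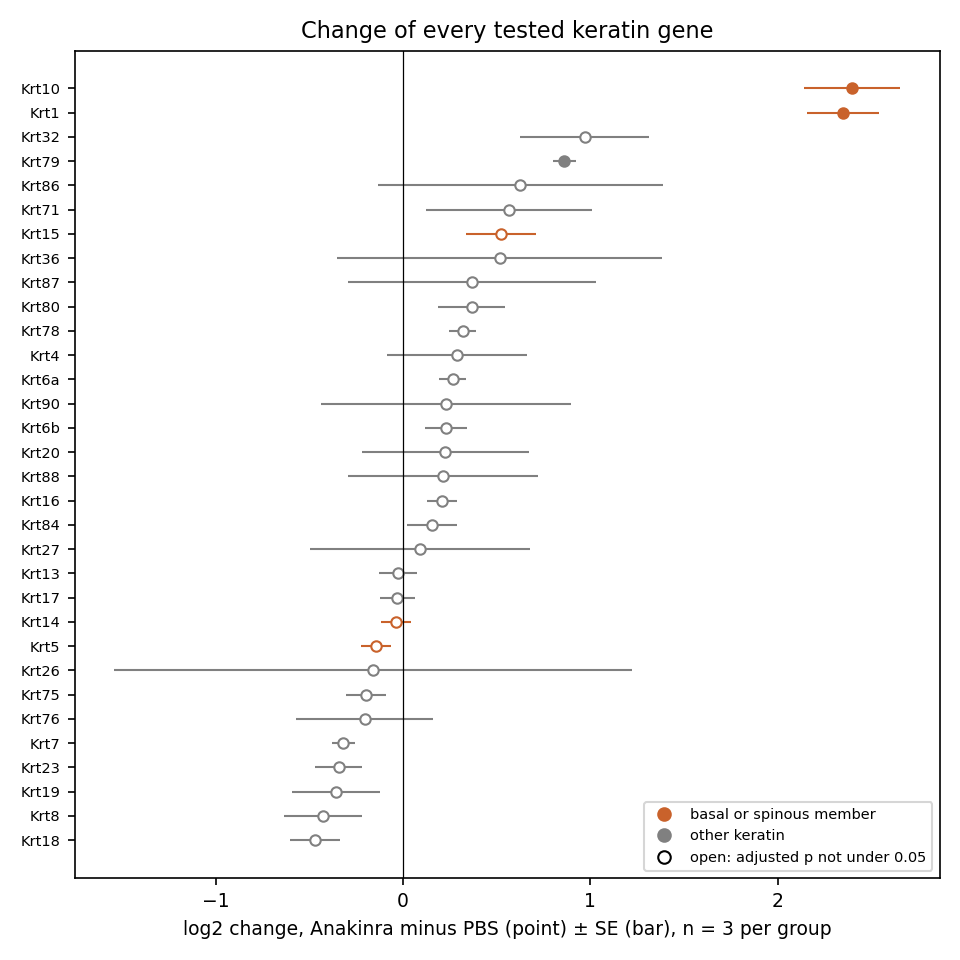
Log2 change (Anakinra minus PBS, horizontal axis) with its SE for each of the 32 tested keratin genes (rows), orange for the 5 basal and spinous keratins and grey for the 27 others, filled where the limma adjusted p was under 0.05. Krt10 and Krt1 stand at 2.40 and 2.35, the next gene at 0.97, and Krt5 and Krt14 just below 0.

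Genomic neighbours were read as a description. In RefSeq gene order, Krt1 lies between Krt2 and Krt77, followed by Krt76, which differed by -0.21 ± 0.37 (limma adjusted p = 0.853). Krt10 lies between Krt28 and Krt12, both too dim to test, with Krt27 (0.09 ± 0.59, limma adjusted p = 0.971) and Krt20 (0.23 ± 0.44, limma adjusted p = 0.871) beyond them. Krt6a and Krt71 flank Krt5, and Krt9 and Krt16 flank Krt14. Krt15 lies between Krt13, a keratin of internal stratified epithelia, and Krt19. None of the tested neighbours within 2 genes passed, apart from Krt1 itself where it neighbours Krt2 and Krt77. For the dim neighbours no change could be measured.

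The spinous keratins rose with other genes of keratinocyte differentiation. Of 37 tested genes of a suprabasal differentiation list, limma called 12 higher and 1 lower (0.971% and 0.801% of all genes). Their median change was 0.39, and 26 had an unadjusted p under 0.05 (16.1% of all genes had one). In 26 every Anakinra culture was above every PBS culture, an order seen in 12.5% of all genes. Dsg1a, a desmosomal cadherin of the suprabasal layers, rose by 1.78 ± 0.15 (limma adjusted p = 0.0123). It measured -0.47, -0.49 and -0.17 in PBS and 1.38, 1.19 and 1.63 in Anakinra. Dsc1, its desmocollin counterpart, rose by 1.23 ± 0.11 (limma adjusted p = 0.0124), and Hrnr, a filaggrin-like protein of the upper layers, by 1.55 ± 0.14 (limma adjusted p = 0.0152). Tgm1, the transglutaminase that crosslinks the cornified envelope, rose by 0.71 ± 0.07 (limma adjusted p = 0.0150).

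The gene of that list that fell was Ptgs1, the cyclooxygenase-1 gene, by 0.72 on the log2 scale (limma adjusted p = 0.0395). Krt1 and Krt10 were not counted in the list, and both changed by more than the highest gene in it. With the slide as a block, with per-array median scaling, or without the filter on dim probes, 0 genes of the list passed in either direction. The count of higher genes was 0 without PBS 1, PBS 2 or Anakinra 1, 1 without PBS 3, and 6 without Anakinra 2 or Anakinra 3.

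Most basal genes other than keratins, like Krt5 and Krt14, did not pass. Of 25 genes, among them integrins, laminins and hemidesmosome genes, limma called 1 higher and 0 lower (0.971% and 0.801% of all genes). An unadjusted limma p under 0.05 was found for 5 of them (16.1% of all genes had one), and their median change was 0.09. The called gene of this list was Thbd, thrombomodulin, which is known in suprabasal keratinocytes. It rose by 0.63 ± 0.07 (limma adjusted p = 0.0237). Without any 1 of the 6 arrays, with the slide as a block, with per-array median scaling or without the filter on dim probes, 0 of the basal genes were called higher.

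The list of regulators of the basal to spinous switch held Notch pathway genes, C/EBP, AP-1 and Klf family members and others. Among 42 tested, limma called 0 higher and 1 lower (0.971% and 0.801% of all genes). An unadjusted limma p under 0.05 was found for 12 (16.1% of all genes had one), and the median change was 0.07. The gene that fell was Ehf, an ETS family transcription factor of epithelia, by 0.63 on the log2 scale (limma adjusted p = 0.0307). It measured 1.27, 1.38 and 1.20 in PBS and 0.73, 0.65 and 0.58 in Anakinra. Under the same omissions and settings as for Thbd, 0 of the regulators were called lower.

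Markers of other cells that such cultures could hold were read beside the keratins. Of 15 fibroblast genes 2 rose, Lum by 1.43 ± 0.15 and Col3a1 by 0.95 ± 0.13 (limma adjusted p = 0.0199 and 0.0400). Of all genes, 0.971% passed as higher. Lum was dim, at -5.17, -5.21 and -5.48 in PBS and -4.10, -3.65 and -3.82 in Anakinra. An unadjusted p under 0.05 was found for 9 of the 15 (16.1% of all genes had one). The Anakinra cultures lay wholly above the PBS cultures in 9 genes (12.5% of all genes did) and wholly below in 3 (13.8% of all genes). The 3 include Twist2 (-0.79 ± 0.14, limma adjusted p = 0.0707) and Dcn (-0.38 ± 0.07, limma adjusted p = 0.0698). The median change of the list was 0.32, and its summed signal, on the same log2 scale, was 4.91 to 5.21 in PBS and 5.28 to 5.45 in Anakinra. Its brightest genes, Sparc and Col1a2, differed by 0.32 ± 0.12 and 0.18 ± 0.10, and neither passed (limma adjusted p = 0.290 and 0.434). The part of these cells in the keratin result was not tested.

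Of 13 tested hair follicle genes, 1 rose (Krt79) and 0 fell (0.971% and 0.801% of all genes). The list had a median of 0.09 and summed signals of 4.43 to 4.60 in PBS and 4.55 to 4.71 in Anakinra. An unadjusted limma p under 0.05 was found for 3 of the 13 (16.1% of all genes had one). In 3 genes the Anakinra cultures lay wholly above the PBS cultures (12.5% of all genes did). In 2, Cd34 among them, they lay wholly below (13.8% of all genes). Cd34 had the largest change, -1.07 ± 0.24, and did not pass (limma adjusted p = 0.118). The 2 brightest genes of the list were Krt75, at -0.20 ± 0.11, and Sox9, at 0.14 ± 0.14. Limma called 0 of 10 melanocyte genes, with a median of 0.24 and overlapping sums of 6.53 to 6.80 and 6.74 to 6.85. An unadjusted p under 0.05 was found for 4 of the 10 (16.1% of all genes had one). All 10 changes were positive, and in 6 the Anakinra cultures lay wholly above the PBS cultures (12.5% of all genes did). Dct and Pmel, the brightest of them, differed by 0.18 ± 0.09 and 0.06 ± 0.12.

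Limma called 0 of 5 tested immune genes (1 with an unadjusted p under 0.05), with a median of 0.00 and sums of 1.92 to 2.09 and 1.96 to 1.99. An unadjusted p under 0.05 was found for 16.1% of all genes, the share for the lists that follow as well. The leukocyte gene Ptprc, the macrophage gene Adgre1 and the T cell gene Cd3e gave no tested probe. Lyz2 and Cd68, the brightest, differed by -0.19 ± 0.11 and 0.00 ± 0.18. Of 4 tested endothelial genes, limma called 0, and the median change was -0.27. Their summed signals, 1.08 to 1.17 in PBS and 0.77 to 1.02 in Anakinra, did not overlap. In 2 of them, Kdr and Egfl7, every Anakinra culture was below every PBS culture, an order seen in 13.8% of all genes. Of the 2 with an unadjusted p under 0.05, Kdr was well above background on 3 PBS arrays and 1 Anakinra array, so it entered the test through the group where it was higher and says nothing of a fall. The brightest endothelial genes, Egfl7 and Pecam1, differed by -0.26 ± 0.08 and 0.12 ± 0.23 (limma adjusted p = 0.228 and 0.871). The 9 keratinocyte identity genes had a median of -0.04, 0 calls by limma (2 with an unadjusted p under 0.05) and overlapping sums of 10.4 to 10.6 in PBS and 10.4 to 10.5 in Anakinra.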

How the data were processed

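Total RNA of 6 cultures was measured on 6 arrays with Alexa-555 label, per the labels' protocols. Groups come from the treatment label. Per the file headers, the authors' processed intensity was background-subtracted within each array by Agilent Feature Extraction 9.5.3.1 and not normalised between arrays. The log2 values of the authors' deposited table equalled log2 of that intensity plus 1 constant per array, within 0.001; the sources used here do not give the rule for the constants. The table's column medians were 5.77, 5.83 and 6.22 (PBS) and 5.74, 7.00 and 6.21 (Anakinra).

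From log2 of the processed intensity, the 75th percentile over the array's spots was subtracted, leaving out control and outlier spots. As an intensity, that percentile was 864 to 1006 in PBS and 1002 to 1087 in Anakinra. Each array had 43379 spots that were no controls. Spots of a probe were averaged. A probe entered if well above background on all arrays of a group, with at least 2 values per group, and the brightest probe stood for a gene. Of 41174 probes, RefSeq accession named 23477, symbol 6678 and synonym 2891, and 8128 kept the file's name. Sequences and gene order are RefSeq's, of GRCm38.p6. Groups were compared with limma 3.58.1 in R 4.3.3 (lmFit, eBayes, two-sided), which was first tested on simulated data.

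The keratins and the lists were chosen with earlier results of these data known. The rule for named genes took all 7 keratins and up to 4 called genes per list with the smallest p (2 where none was called). It also took 3 nearest profiles per keratin and the 2 brightest genes per marker list. Genomic neighbours, Lum, Col3a1, Twist2, Dcn, Cd34, Kdr and Ptgs1 were added after their values were seen. So was leaving out Anakinra 2 for its share of probes above background. Alternatives changed the scaling, background correction, dim-probe filter, probe choice, array weights, variance model, slide or replicate block, or left out 1 array. Same-numbered arrays deviated together at correlations of 0.41, -0.49 and -0.21, so the numbers were not taken as pairs.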

Additional observations from a re-analysis of the deposited data

How the results depend on the processing

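Krt1 rose by 2.02 to 2.46 and Krt10 by 2.07 to 2.63 under all 19 alternatives, and they passed in 11 and 10 of them. Neither passed without the filter on dim probes (2.35 and 2.40), with the slide as a block (2.32 and 2.39), within slide 1 (2.39 and 2.58), within slide 2 (2.24 and 2.21) or with the replicate number as a replicate block (2.35 and 2.40, with limma adjusted p of 0.221 and 0.222). With an array left out the changes ran from 2.18 to 2.46 and from 2.22 to 2.63. The replicate block left 0 genes higher and 0 lower; the paired numbers have no basis in the labels. Krt5 and Krt15 kept their sign and their side of the threshold in all 19. Krt14 never passed and turned to 0.040 with quantile scaling, 0.018 with the authors' values, 0.014 with normexp, 0.082 within slide 1, and ranged from -0.071 to 0.023 over the fits with an array left out. The changes of Krt1 against Krt5 (2.33 to 2.64) and Krt10 against Krt14 (2.26 to 2.64) moved by less than the spread between replicates. Per-array median scaling shifted the median of all genes to -0.32; changes under it are relative to that. Depth here is signal over background: it left 3 of the 9 probes untested.

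Of all genes, 160 higher and 132 lower became 8 and 49 with median scaling, 7 and 29 without the filter, 338 and 241 with only probes above background on all arrays, 18 and 35 with the slide block, 0 and 0 within either slide, and 411 and 376 with a trended, robust variance. With an array left out they ranged from 1 to 97 and from 7 to 137. The counts of called genes in the lists of other keratins (1 higher), suprabasal genes (12 higher, 1 lower), basal genes (1 higher) and regulators (1 lower) were all 0 with median scaling, without the filter, within either slide and with the replicate block. With the slide block they were 0 in the last 3 lists. The trended fit gave 2 other keratins higher and 1 lower, 2 basal genes higher and 1 lower, and 2 regulators lower. Quantile scaling and the stricter filter each gave 2 basal genes higher, the stricter filter and the mean of probes gave 1 basal gene lower, and the mean of probes gave 0 regulators lower. Array weights gave 0 suprabasal genes lower and 0 regulators lower. With an array left out, 0 to 1 other keratins were higher, 0 to 6 suprabasal genes were higher and 0 lower, 0 basal genes were higher, and 0 regulators were lower.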
